A study of Selenicereus undatus with 4 samples.

Results

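Pigment genes of pitaya were compared between lit plants 1 week after the bud stage (L2) and unlit plants that did not flower (NL). Of the 11051 unigenes (assembled transcripts) in the deposited comparison of L2 with NL, 36 were pigment genes by their annotation. They were chosen by words in the annotation for chalcone, flavonoid, anthocyanin, dihydroflavonol, DOPA, betalain, arogenate and tyrosine decarboxylase enzymes. Of the 36 genes, 23 belong to flavonoid steps and 13 to a set called tyrosine and betalain genes here. That set takes in 3 genes of arogenate or prephenate dehydratase. These lead to phenylalanine and fall in the set by the word arogenate only. L2 was thorn seat tissue of the red-fleshed cultivar 'Jindu No.1' taken 1 week after the bud stage, from plants given supplementary light at night. NL was taken at the same stem position from plants that received no such light and did not flower. The tissue make-up of the 2 samples may therefore differ. All plants were 1 year old and had the same watering and fertilizer. Each stage has 3 libraries, which the study's methods describe as biological replicates of mixed plants of visually similar bud size, and the lit stages L0 and L1 were not analysed here.

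Plants make their red and yellow pigments by separate routes. Flavonoids, anthocyanins among them, start from phenylalanine and pass through chalcone synthase. Betalains start from tyrosine, which is hydroxylated to DOPA. DOPA is either closed to a ring (cyclo-DOPA) or opened by DOPA dioxygenase to betalamic acid, the chromophore of all betalains. In most families of the Caryophyllales, the plant order that holds cacti and beet, betalains take the place of anthocyanins. The red flesh of pitaya is coloured by betalains. Arogenate stands at the fork, since arogenate dehydrogenase turns it into tyrosine and arogenate dehydratase turns it into phenylalanine.

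The deposited values are RPKM, the reads of a unigene divided by its length and by the mapped reads of the library. The table lists genes that the authors had already called different between NL and L2, so a gene's presence in it is no new result, and a gene outside it was not shown to be unchanged. Library totals were 5803177 to 7533457 reads in L2 and 3860701 to 5269237 reads in NL, so that 1 read on 1 kb was worth 0.133 to 0.172 RPKM in L2 and 0.190 to 0.259 RPKM in NL. L2 and NL differ in light and in bud development at once, and these cannot be told apart. The 4 listed genes for the floral organ regulators AGAMOUS and SEPALLATA were all called higher, with summed RPKM of 124 to 195 in L2 libraries and 0.690 to 3.88 in NL libraries. One of them had no reads in NL. No gene for the petal regulators APETALA3 and PISTILLATA (DEFICIENS and GLOBOSA in other species) was listed. Of 19 chlorophyll a-b binding protein genes of green tissue, 17 were called lower, with sums of 639 to 1532 in L2 and 3605 to 4640 in NL. The 1 listed RuBisCO small chain gene, also of green tissue, was not called. It had 7.99 to 19.4 RPKM in L2 and 12.4 to 178 RPKM in NL. Of dividing-cell markers, the 2 histone H4 genes were called higher and a cyclin-B2-2-like gene lower. The part of any change in tissue make-up in the pigment results was not tested. In bulk tissue, fewer cells of a type and less RNA per cell cannot be told apart.

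Most pigment genes were higher in L2. By limma on log2(RPKM + 0.1), with Benjamini-Hochberg adjustment over all listed genes and a threshold of 0.05, 28 of the 36 were called higher, 7 were called lower and 1 was not called. Among all genes listed, 99.3% of genes were called, 63.0% higher and 36.3% lower, against 77.8% and 19.4% of the pigment genes. The 3 L2 libraries lay wholly above the 3 NL libraries for 25 genes and wholly below for 7, and overlapped for 4. Among all genes listed, 97.6% of genes did not overlap, 62.0% with L2 above and 35.5% with L2 below. The median log2 difference of L2 minus NL was 2.19 over the pigment genes and 1.43 over all listed genes, or 2.27 and 1.44 for the log2 ratio of mean RPKM with genes without reads set at their bound. Scaling factors computed on the listed genes lower L2 relative to NL, by 0.853 for TMM in edgeR and 1.08 for DESeq2 on the log2 scale. Genes without reads in NL do not follow by that amount, since their fitted values depend on how each tool treats a 0. With them 23 pigment genes were called higher and 7 lower by edgeR (38.6% and 36.6% of all genes), and 13 higher and 7 lower by DESeq2 (25.1% and 36.4% of all genes). As a result 80.0% of the calls were higher in limma, 76.7% in edgeR and 65.0% in DESeq2. The same shares over the table were 63.5%, 51.4% and 40.9%. TMM and DESeq2 scaling take most genes to be stable between stages, whereas the table holds only genes selected as changed. The factors may therefore remove part of the shift toward L2 itself. A call lost under them, here and below, cannot tell a weak difference from this effect of the selection. No pigment gene changed the sign of its difference under any of the alternatives in which it was fitted.

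**Figure D1:**
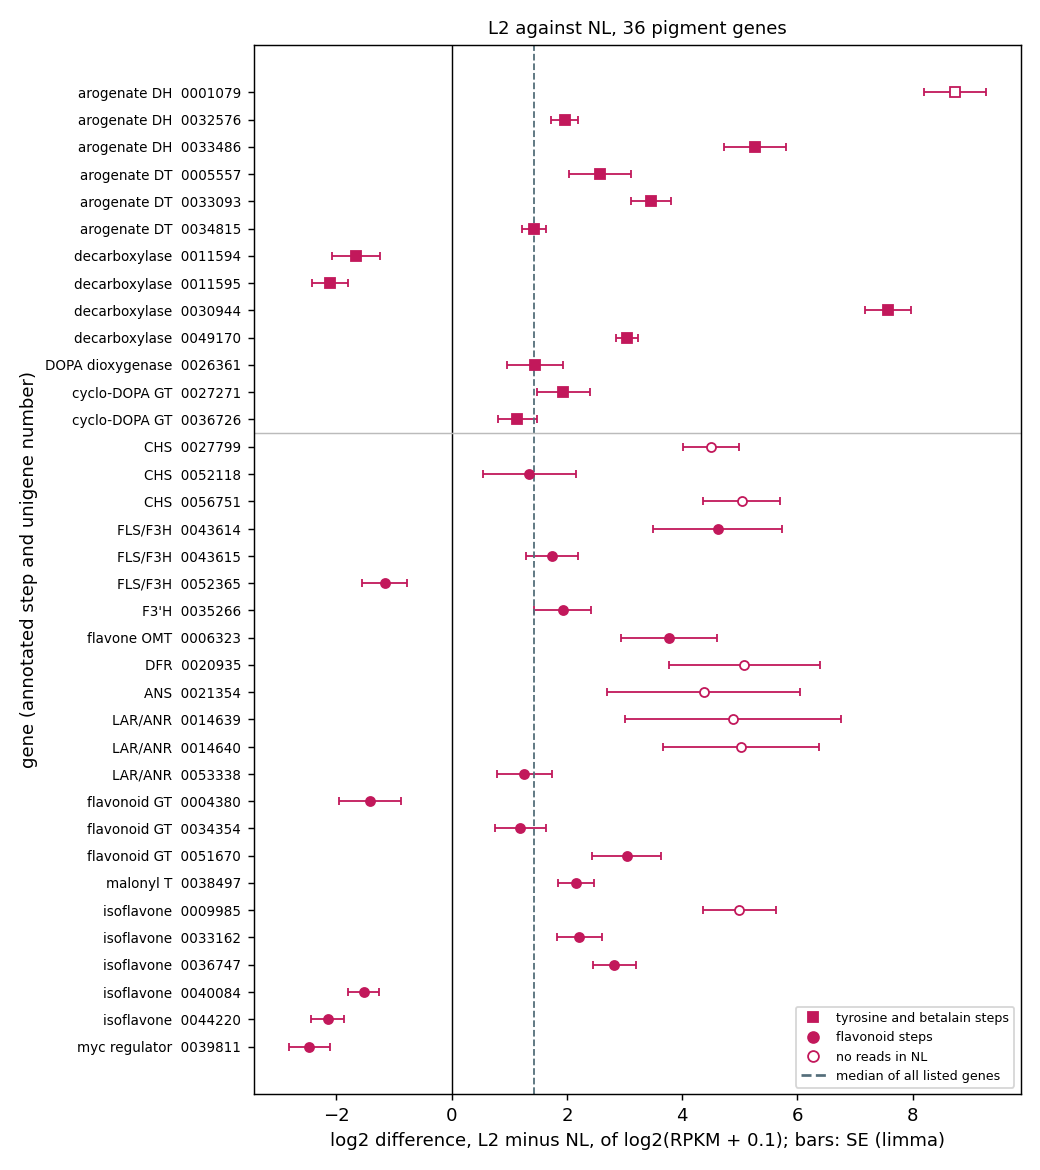
Log2 difference of L2 minus NL for the 36 pigment genes (horizontal axis, limma on log2(RPKM + 0.1), bars show the SE), with tyrosine and betalain genes (squares) above flavonoid genes (circles). Open symbols mark the 8 genes without reads in NL, whose fitted difference depends on the added 0.1, and the dashed line is the median of all listed genes, 1.43. Of the 36 points 29 lie right of 0 and 7 lie left of it.

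Genes that supply tyrosine were higher in L2. Arogenate dehydrogenase makes tyrosine in plastids, and the 3 genes annotated to it were all called higher. Unigene0001079 had 80.1, 36.0 and 26.2 RPKM in L2 and no reads in any NL library. Its 1317 reads in L2 against none in NL put it at least 295-fold higher, taking a floor of 3 reads over the NL stage. Unigene0033486 had 31.4, 39.9 and 14.3 RPKM in L2 against 0.546, 0.321 and 1.06 in NL, a 44.5-fold ratio of means. Unigene0032576, the only 1 of the 3 with a mean above 1 RPKM in NL, had 22.5, 34.4 and 25.3 RPKM in L2 against 7.62, 6.05 and 6.94 in NL, a log2 difference of 1.96 ± 0.23 (SE, adjusted p = 1.85e-04). All L2 libraries were above all NL libraries for each gene, and the summed RPKM of the 3 genes averaged 103 ± 34.6 in L2 and 7.51 ± 0.991 in NL (SD, n = 3 each), a 13.8-fold ratio. In NL, Unigene0032576 gave nearly all of that sum, while in L2 the means were 47.5 for Unigene0001079, 27.4 for Unigene0032576 and 28.5 for Unigene0033486.

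The enzyme of the other side of the fork rose as well. Arogenate or prephenate dehydratase leads to phenylalanine, the precursor of flavonoids and lignin, and its 3 genes were all called higher. Unigene0033093 had 32.3, 53.7 and 35.1 RPKM in L2 against 4.05, 4.76 and 2.18 in NL, with a log2 difference of 3.46 ± 0.35 (adjusted p = 9.23e-05). Unigene0034815 had 24.9, 21.5 and 21.5 RPKM in L2 and 6.99, 9.72 and 8.36 in NL, a smaller 2.71-fold ratio. Unigene0005557 stayed low in both stages, at 0.997, 1.29 and 2.59 RPKM in L2 against 0.104, 0.243 and 0.178 in NL, where it rests on 5 reads. The L2 libraries of each gene were above its NL libraries. The dehydratase genes summed to 64.6 ± 10.3 RPKM in L2 and 12.2 ± 2.20 in NL, a 5.30-fold ratio. Under DESeq2 the calls of Unigene0034815 (adjusted p = 0.19) and Unigene0005557 (0.056) were lost, and the log2 difference of Unigene0034815 in limma, 1.43, equalled the median of all listed genes.

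Tyrosine and DOPA decarboxylases, which turn tyrosine into tyramine or DOPA into dopamine, split into a pair that was higher and a pair that was lower. Unigene0030944, annotated as tyrosine/DOPA decarboxylase 1, had the highest level of all pigment genes in L2, with 505, 238 and 250 RPKM in L2 against 1.21, 2.62 and 1.12 in NL. The ratio of its means was 200.5, and the log2 difference was 7.57 ± 0.40 (adjusted p = 3.31e-05). Ordered by mean RPKM among the listed genes it stood at place 70 in L2 and place 7683 in NL. Unigene0049170, a tyrosine decarboxylase 1, had 212, 179 and 208 RPKM in L2 against 27.1, 27.1 and 19.3 in NL, with a log2 difference of 3.04 ± 0.19. The lower pair were short unigenes of 338 and 457 nt. Unigene0011594, tyrosine/DOPA decarboxylase 2-like, had 20.0, 7.65 and 7.64 RPKM in L2 against 28.7, 49.8 and 26.4 in NL (log2 difference -1.66 ± 0.42, adjusted p = 0.00615). Unigene0011595, tyrosine decarboxylase 1-like, had 21.8, 9.05 and 12.8 RPKM in L2 against 66.6, 56.1 and 55.2 in NL (log2 difference -2.11 ± 0.31, adjusted p = 4.99e-04). The stages did not overlap for any of the 4 genes. The 2 lower genes have neighbouring identifiers and short sequences, so that the split of reads between them is uncertain. In NL, Unigene0011595 was the decarboxylase of the highest level, and in L2 it was Unigene0030944. The 4 genes together averaged 557 ± 176 RPKM in L2 and 120 ± 17.0 RPKM in NL.

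The dioxygenase and glucosyltransferase steps of betalain synthesis had 3 genes, all called higher in limma and none above 20 RPKM. DOPA dioxygenase, the enzyme that opens the ring of DOPA, was represented by Unigene0026361, with 5.10, 4.27 and 4.85 RPKM in L2 against 2.64, 0.885 and 1.94 in NL. Its log2 difference of 1.45 ± 0.49 had an adjusted p of 0.0196, which was 0.0601 without L2 replicate 1 and 0.0537 without L2 replicate 3. Under edgeR with TMM its adjusted p was 0.406. Cyclo-DOPA 5-O-glucosyltransferase adds glucose to cyclo-DOPA on the way to betanin and was represented by 2 genes. Unigene0027271 had 3.92, 4.89 and 9.26 RPKM in L2 against 1.56, 1.53 and 1.12 in NL, a log2 difference of 1.94 ± 0.46 (adjusted p = 0.0046 in limma and 0.0959 in DESeq2). Unigene0036726 had 8.61, 13.1 and 18.4 RPKM in L2 against 4.30, 6.39 and 6.86 in NL, with a log2 difference of 1.14 ± 0.34 (adjusted p = 0.0128 in limma and 0.39 in edgeR with TMM). For these 3 genes the L2 libraries were all above the NL libraries, by 2.29- to 4.29-fold in the means. The differences of the dioxygenase and of Unigene0036726 lie near or under the median of all listed genes. Both calls were lost under TMM and DESeq2 scaling, whose factors rest on genes selected as changed. These losses are therefore given as description only. No gene description contained the word betalain.

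**Figure D2:**
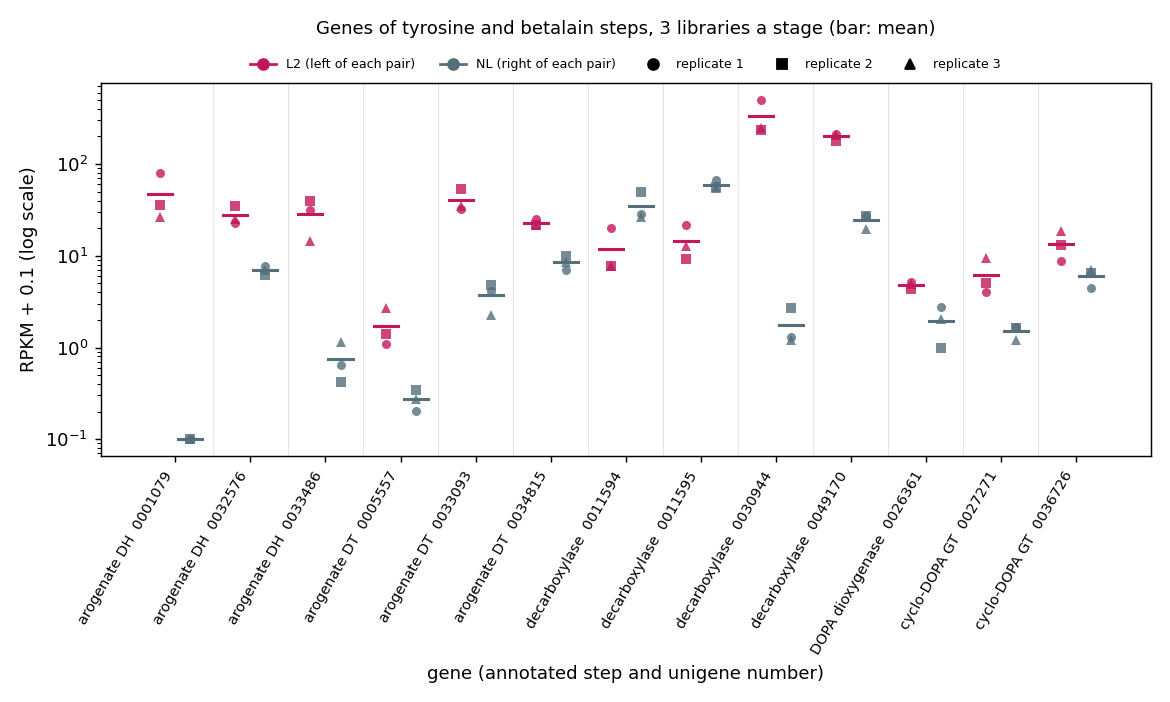
RPKM + 0.1 on a log axis for the 13 tyrosine and betalain genes, with the 3 L2 libraries left and the 3 NL libraries right of each pair, symbols for the replicates and bars for the mean. The decarboxylase Unigene0030944 stands at 238 to 505 RPKM in L2 and 1.12 to 2.62 RPKM in NL, while decarboxylases Unigene0011594 and Unigene0011595 lie lower in L2 than in NL.

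Cytochrome P450 enzymes of the CYP76AD group hydroxylate tyrosine and close the DOPA ring in beet. They lie outside the pigment genes, since their annotations hold none of the chosen words. Annotations as cytochrome P450 were also to be left out, which removed 0 genes. Flavonoid 3'-monooxygenase (Unigene0035266) and the isoflavone 2'-hydroxylase-like gene (Unigene0009985) are also P450 enzymes. They stayed among the pigment genes because their annotations do not carry that name. The table listed 9 CYP76AD genes, of which 4 were called higher and 5 lower, or 44.4% and 55.6%. Over all listed genes the shares were 63.0% and 36.3%. The sum over the 9 genes was lower in every L2 library, at 60.8, 87.1 and 56.1 RPKM in L2 against 109.5, 125 and 170.4 in NL. The highest in L2 was Unigene0009895, with 29.0, 25.2 and 19.2 RPKM in L2 and 8.90, 10.6 and 5.14 in NL. Its log2 difference of 1.61 in limma was near the median of all listed genes, 1.43. Under DESeq2 its higher call was lost (adjusted p = 0.183). The highest in NL was Unigene0051939, with 4.18, 17.1 and 12.1 RPKM in L2 against 34.2, 36.3 and 58.8 in NL. Unigene0041021 had the lowest ratio, with 0.348, 3.03 and 1.55 RPKM in L2 against 21.7, 17.9 and 21.8 in NL, or 12.5-fold lower. Their values had been seen before these 3 were picked. The stages overlapped for 1 of the 9 genes, Unigene0002096, whose lower call had an adjusted p of 0.0278, and of 0.079 to 0.121 without L2 replicate 1 or 3 or NL replicate 2 or 3. The higher call of Unigene0053271 was lost without L2 replicate 1 (adjusted p = 0.0595).

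Of the shikimate supply, upstream of both routes, 8 of 12 listed genes were called higher and 4 lower. With the 9 genes of the phenylpropanoid entry, on the phenylalanine side only, 17 of 21 genes were called higher and 4 lower. Among all listed genes, 63.0% were called higher and 36.3% lower. With the CYP76AD genes, side steps, later uses of tyrosine and transporters, the list of neighbouring steps held 40 genes, 29 called higher and 11 lower, or 72.5% and 27.5%, and its median log2 difference was 1.90. All 9 genes listed for the entry into flavonoids were called higher. They were 2 of phenylalanine ammonia-lyase, 1 of cinnamate 4-hydroxylase and 6 annotated as 4-coumarate:CoA ligase or ligase-like. The ligase-like ones were Unigene0030754, Unigene0051353 and Unigene0053994, and such a name does not establish the entry step. Of these 9 genes, phenylalanine ammonia-lyase Unigene0009982 and ligase-like Unigene0053994 lost the call under TMM (adjusted p = 0.0958 and 0.0556) and under DESeq2 (0.438 and 0.243). Cinnamate 4-hydroxylase, the second enzyme of that entry (Unigene0038215), had 175, 127 and 119 RPKM in L2 against 6.50, 12.4 and 6.12 in NL, a 16.9-fold ratio. The phenylalanine ammonia-lyase genes summed to 242 ± 49.2 RPKM in L2 and 85.4 ± 21.1 RPKM in NL, most of it from Unigene0009982. The ligase and ligase-like genes summed to 301 ± 58.3 RPKM in L2 and 58.6 ± 13.1 RPKM in NL. Most of that ligase sum came from ligase-like Unigene0051353, with means of 181.5 RPKM in L2 and 38.0 RPKM in NL. At the start of the shikimate pathway, DAHP synthase gene Unigene0050512 had 579, 398 and 237 RPKM in L2 against 34.1, 34.7 and 17.7 in NL. Its level in L2 was above that of every pigment gene by mean RPKM.

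The supply side held both directions at shares near those of the table. Of the 12 genes of the shikimate pathway and of chorismate and prephenate steps, 8 were called higher and 4 lower, or 66.7% and 33.3%, and the lower ones were 1 chorismate synthase, a dehydroquinate synthase homolog and the 2 inactive shikimate kinase-like genes. Isochorismate synthase, which leads away toward salicylate, was 1.40, 2.52 and 1.79 RPKM in L2 against 11.7, 11.2 and 11.7 in NL, 6.05-fold lower. Polyphenol oxidase, which oxidizes phenols such as DOPA (Unigene0053393), was 56.7, 40.3 and 33.9 RPKM in L2 against 0.956, 3.37 and 0.720 in NL, a 26.0-fold ratio.

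**Figure D3:**
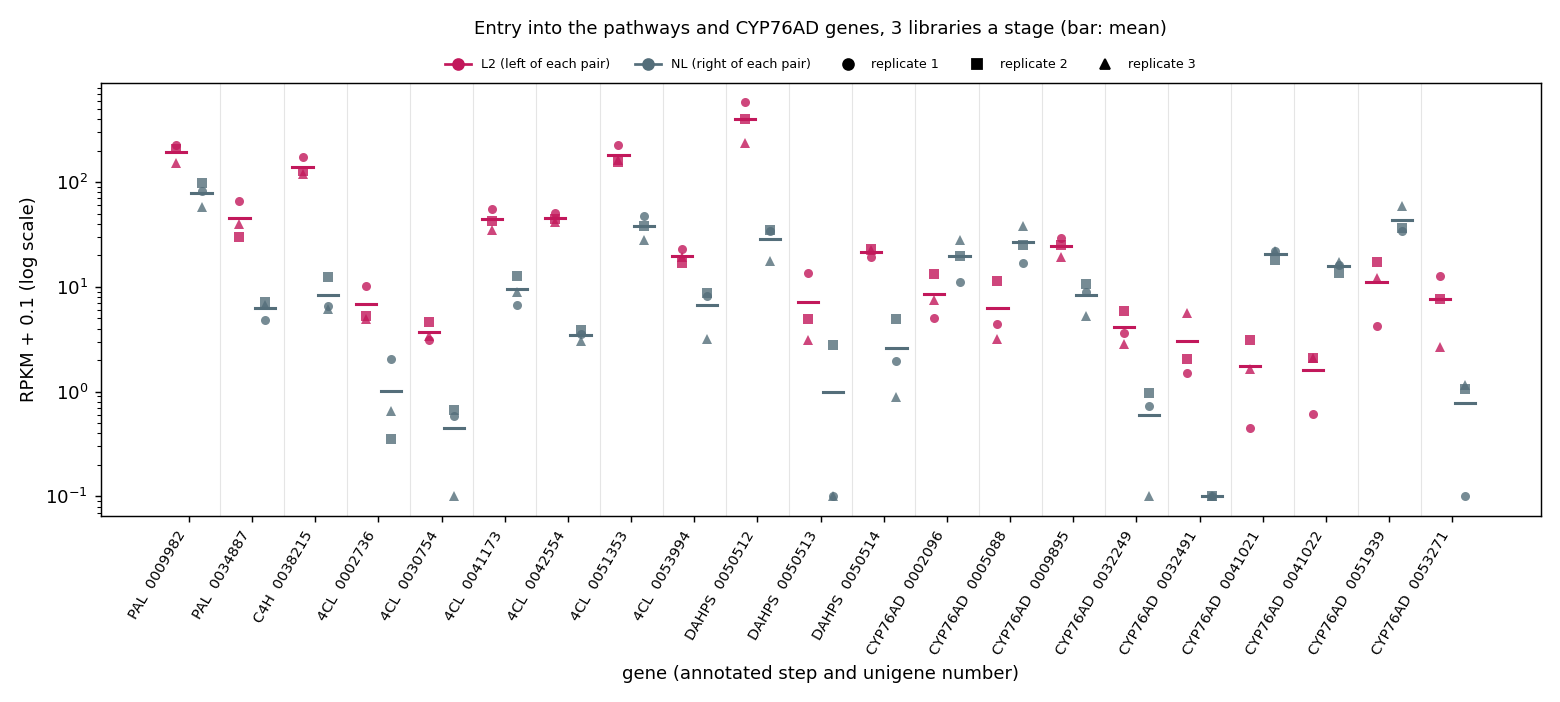
RPKM + 0.1 on a log axis for genes of phenylalanine ammonia-lyase (PAL), cinnamate 4-hydroxylase (C4H), 4-coumarate:CoA ligase or ligase-like (4CL), DAHP synthase (DAHPS) and the P450 group CYP76AD. L2 is left and NL right of each pair, with bars for the mean of 3 libraries. All PAL, C4H, 4CL and DAHPS genes stand higher in L2, whereas 5 of the 9 CYP76AD genes have lower means in L2 than in NL.

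Of the 23 flavonoid genes, 17 were called higher in L2, 5 lower and 1 was not called, or 73.9% and 21.7% in each direction. The shares over all listed genes were 63.0% higher and 36.3% lower. The median log2 difference was 2.22 over the flavonoid genes and 1.43 over all listed genes. In limma without L2 replicate 2 the flavonoid counts were 14 higher and 4 lower, where 58.7% of all genes were called higher and 34.8% lower. No reads in NL were found for 7 of the 23, so their folds are lower bounds. Mean RPKM of the flavonoid genes in L2 had a median of 8.62 and a highest value of 70.2. For the tyrosine and betalain genes these values in L2 were 22.6 and 330.6. Their median is the level of Unigene0034815, a dehydratase of the phenylalanine side, and their highest value that of decarboxylase Unigene0030944. The DOPA dioxygenase and the cyclo-DOPA glucosyltransferases had L2 means of 4.74, 6.02 and 13.4 RPKM, so the comparison does not rank the betalain route above the flavonoid route.

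Chalcone synthase, which commits carbon to flavonoids, had 3 genes, and none exceeded 16 RPKM in any library. The gene of highest mean, Unigene0052118, had 9.22, 15.7 and 1.63 RPKM in L2 against 1.79, 4.19 and 1.79 in NL. Replicate 3 of L2 lay below all NL libraries, and the difference was not called (log2 difference 1.35 ± 0.81, adjusted p = 0.137). Without L2 replicate 3 it was 2.29 with an adjusted p of 0.00902. With all libraries it was called under the replicate block (adjusted p = 0.0434) and by edgeR with library totals (0.0175). The other 2 genes had 1.10 to 6.05 RPKM in L2 and no reads in NL, which makes them at least 5.61- and 5.91-fold higher. These folds rest on 24 reads in L2 for each gene, and neither gene was called by DESeq2 (adjusted p = 0.0844 and 0.0635). The 3 genes together averaged 15.1 ± 3.63 RPKM in L2 and 2.59 ± 1.39 RPKM in NL.

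Flavanone 3-hydroxylase turns flavanones into dihydroflavonols, and flavonol synthase turns dihydroflavonols into flavonols. The annotation does not separate these enzymes. Unigene0043614 was the highest of the 3 genes, with 46.3, 60.2 and 36.0 RPKM in L2 against 0.930, 14.6 and 0.355 in NL. NL replicate 2 stood far above the other NL libraries, yet below every L2 library. The log2 difference was 4.62 ± 1.12 (adjusted p = 0.00498), and 6.09 without NL replicate 2 or 3.58 without NL replicate 3. Under DESeq2 the call was lost (log2 difference 2.17, adjusted p = 0.147). Unigene0052365 went the other way, with 2.05, 2.20 and 4.28 RPKM in L2 against 5.49, 6.62 and 6.38 in NL (log2 difference -1.16 ± 0.39, adjusted p = 0.0203). Its call was lost on leaving out L2 replicate 1 or 2 or NL replicate 2 or 3, with adjusted p of 0.0516 to 0.0571. The remaining gene, Unigene0043615, averaged 14.4 ± 1.03 RPKM in L2 and 4.87 ± 3.11 RPKM in NL and was called higher in limma, but not under TMM (adjusted p = 0.102) or DESeq2 (0.331). It has the identifier next to that of Unigene0043614 and the same annotation, so reads may be shared between them.

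Enzymes that decorate the flavonoid ring were low. Flavonoid 3'-monooxygenase adds a hydroxyl group to the B ring. Its gene Unigene0035266 had 4.11, 14.2 and 7.44 RPKM in L2 against 1.71, 2.00 and 2.08 in NL, a log2 difference of 1.93 ± 0.49 (adjusted p = 0.00613 in limma and 0.0924 in DESeq2), with L2 replicate 2 the highest library. Flavone 3'-O-methyltransferase (Unigene0006323) had 2.54, 0.823 and 4.66 RPKM in L2 and a single read in NL, in replicate 1. The ratio of 32 reads to 1 read, scaled by library totals, was 22.8, with a 95% exact (Clopper-Pearson) interval of 3.81 to 930 that covers counting error only. It was called higher in limma (adjusted p = 0.00334) and not in DESeq2 (0.0864).

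Dihydroflavonol 4-reductase, anthocyanidin synthase and leucoanthocyanidin reductase are late enzymes of the anthocyanin and tannin branches, and their transcripts came mostly from a single L2 library. The reductase gene Unigene0020935 had 0.257, 21.0 and 4.9996 RPKM in L2 replicates 1, 2 and 3, which are 2, 126 and 30 reads. Anthocyanidin synthase, Unigene0021354, had 0, 18.2 and 4.75 RPKM, from 0, 115 and 30 reads. Leucoanthocyanidin reductase, Unigene0014639, had 0, 38.0 and 6.62 RPKM, from 0, 109 and 19 reads. A second leucoanthocyanidin reductase unigene with the next identifier, Unigene0014640, had 0.369, 32.6 and 2.15 RPKM, and was chosen after its values were seen. Unigene0014639 and Unigene0014640 are short, at 494 and 719 nt, and share their annotation, so they need not be separate genes. None of the 4 genes had a read in any NL library. All were highest in L2 replicate 2 and lowest in L2 replicate 1, which held no more than 2 reads of any of them although it was the deepest library.

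L2 replicate 2 held 80.0% of the summed L2 RPKM of dihydroflavonol 4-reductase, 79.3% of anthocyanidin synthase, and 85.2% and 92.8% of the 2 leucoanthocyanidin reductase genes. The means gave ratios of at least 41.2-fold for dihydroflavonol 4-reductase, at least 37.9-fold for anthocyanidin synthase, and at least 33.5- and 38.3-fold for the leucoanthocyanidin reductases. Without L2 replicate 2 these bounds were 12.4-, 11.8-, 7.45- and 4.13-fold. The limma calls of anthocyanidin synthase (adjusted p = 0.0324) and Unigene0014639 (adjusted p = 0.0333) were lost on leaving out L2 replicate 2 or 3 or any NL library (adjusted p of 0.0794 to 0.124) and under DESeq2 (0.125 and 0.135), and the stages overlapped at 0 for both. The calls of dihydroflavonol 4-reductase (adjusted p = 0.00657) and Unigene0014640 (adjusted p = 0.00787) were kept, at 0.0188 and 0.00546, without L2 replicate 2. The fitted log2 difference of dihydroflavonol 4-reductase was 5.08 with all libraries, 3.75 without L2 replicate 2 and 6.70 without L2 replicate 1. That of anthocyanidin synthase was 4.37 with all libraries, 2.80 without L2 replicate 2 and 6.56 without L2 replicate 1.

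The same distribution was looked for among all listed genes without reads in NL. Of these 889 genes, 52 (5.85%) were at least 3-fold higher in L2 replicate 2 than in both other L2 libraries, against 30 in replicate 1 and 37 in replicate 3. These 52 hold 4 of the 8 pigment genes without NL reads, the 4 named above, with both leucoanthocyanidin reductase unigenes counted. Of the 52, 29 also had the order of replicate 2, then 3, then 1, and 11 of the 29 carried no annotation. That group included an elongation factor 1-alpha (0.428, 14.2 and 1.67 RPKM), an Actin-5C (0, 11.9 and 0.567) and a YABBY 5 regulator of organ polarity (0.211, 3.01 and 0.683), all 3 chosen after their values were seen. Floral organ markers summed to 165, 124 and 195 RPKM in L2 replicates 1, 2 and 3 and did not have this order, while the chlorophyll a-b binding genes summed to 639, 1532 and 971 and had the same order of replicate 2, then 3, then 1. What set L2 replicate 2 apart in these genes was not tested.

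**Figure D4:**
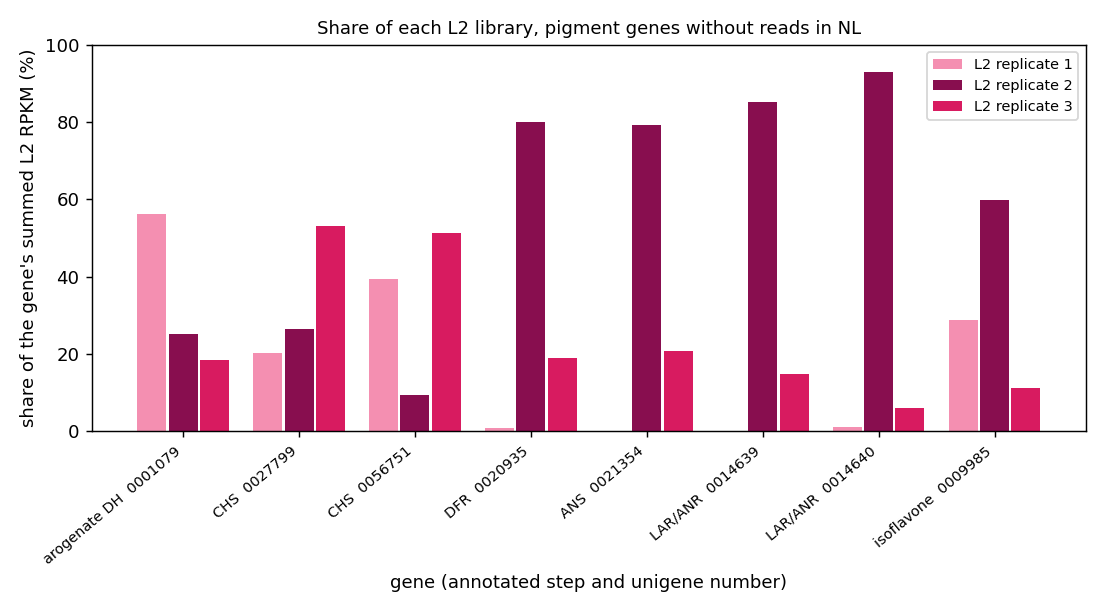
Share of the summed L2 RPKM (vertical axis, percent) that each of the 3 L2 libraries held, for the 8 pigment genes without reads in NL. L2 replicate 2 holds 79.3% to 92.8% for dihydroflavonol 4-reductase (DFR), anthocyanidin synthase (ANS) and 2 leucoanthocyanidin reductases (LAR), and 9.32% to 59.9% for the other 4 genes.

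Anthocyanidin reductase, which works beside leucoanthocyanidin reductase in tannin synthesis, did not have this distribution. Its gene Unigene0053338 was detected in all 6 libraries, with 6.22, 13.3 and 6.32 RPKM in L2 against 4.31, 1.82 and 4.60 in NL. The stages did not overlap, but the call (log2 difference 1.26 ± 0.48, adjusted p = 0.0323) was lost without any 1 of the L2 libraries and without NL replicate 2, with adjusted p of 0.0515 to 0.127. Under edgeR with TMM it was 0.456. It was chosen after its values were seen.

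Sugar and acyl transferases showed both directions. UDP-glucose:flavonoid 3-O-glucosyltransferase, which fixes anthocyanidins as stable glucosides, had 15.7, 5.71 and 17.3 RPKM in L2 against 6.12, 4.90 and 4.23 in NL (Unigene0034354). The stages overlapped, since L2 replicate 2 was below NL replicate 1, and the log2 difference of 1.19 ± 0.44 had an adjusted p of 0.0294. That p was 0.0717 to 0.123 without L2 replicate 1 or 3 or NL replicate 2 or 3, and 0.28 under edgeR with TMM. This gene was lowest in the L2 library in which the late enzymes were highest. Of the 2 genes annotated as anthocyanidin 3-O-glucoside 2''-O-glucosyltransferase, 1 was called higher and 1 lower, with ratios of 8.12 and 0.337 and means of at most 6.42 RPKM. The lower one, Unigene0004380, was no longer called without L2 replicate 1 (adjusted p = 0.074) or NL replicate 3 (0.0819), under the replicate block (0.0536), or with log2(RPKM + 0.01) (0.0529). The malonyltransferase Unigene0038497, which adds malonate to anthocyanin glucosides, had 44.6, 48.2 and 22.1 RPKM in L2 against 8.59, 8.25 and 7.31 in NL. Its log2 difference was 2.16 ± 0.31 (adjusted p = 4.57e-04), and its libraries did not overlap.

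Genes annotated to isoflavone enzymes held the highest levels of the flavonoid set and divided by direction. The names come from matches to other species, and reductases of this family also act on lignans. Unigene0044220, isoflavone reductase-like, had the highest level of the flavonoid genes in NL, with 14.3, 27.6 and 14.8 RPKM in L2 against 89.2, 65.4 and 89.1 in NL (log2 difference -2.15 ± 0.28, adjusted p = 3.10e-04). Unigene0036747, an isoflavone reductase homolog, had the highest level in L2, with 102, 37.4 and 71.0 RPKM in L2 against 11.0, 9.48 and 7.11 in NL (log2 difference 2.83 ± 0.37, adjusted p = 2.78e-04). A second pair at lower levels had the same pair of directions. Unigene0033162 had 8.58, 18.9 and 13.6 RPKM in L2 against 2.50, 3.77 and 2.15 in NL (log2 difference 2.22 ± 0.39). Unigene0040084 had 4.67, 3.34 and 4.87 RPKM in L2 against 11.1, 12.7 and 13.4 in NL (log2 difference -1.52 ± 0.27). None of the 4 genes overlapped between the stages. The remaining gene, an isoflavone 2'-hydroxylase-like gene, had 1.28 to 6.83 RPKM in L2 and no reads in NL, at least 14.0-fold higher. Summed over the 5 genes the levels differed by less than the spread between libraries, with 111 ± 20.0 RPKM in L2 and 106 ± 12.4 RPKM in NL (SD, n = 3 each).

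The only regulator among the pigment genes was lower in L2. Unigene0039811, annotated as a myc anthocyanin regulatory protein, a basic helix-loop-helix factor that in grapevine and other species works with MYB factors on anthocyanin genes, had 1.85, 1.35 and 1.27 RPKM in L2 against 7.20, 8.45 and 10.4 in NL. The log2 difference was -2.47 ± 0.36 (adjusted p = 5.15e-04), the most negative of the pigment genes, and every L2 library was below every NL library. Transporter genes of the name TRANSPARENT TESTA 12, which in Arabidopsis carries flavonoids into the vacuole, had 2 listed members, both called higher. Unigene0030913 had 4.67, 1.10 and 4.77 RPKM in L2 against 0.471, 0.414 and 0.202 in NL, and Unigene0014780 had 2.81, 5.27 and 0.405 RPKM in L2 and no reads in NL.

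**Figure D5:**
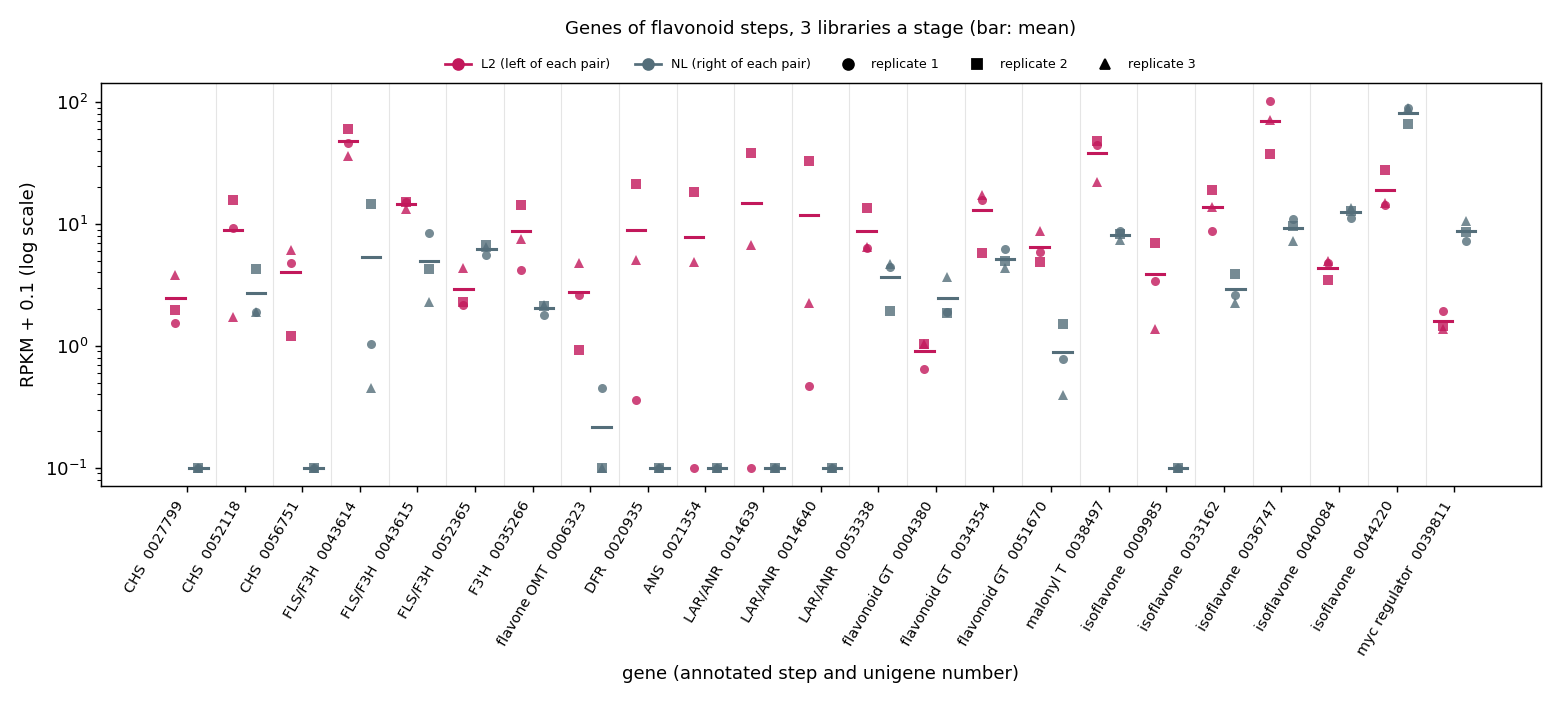
RPKM + 0.1 on a log axis for the 23 flavonoid genes in pathway order, with the 3 L2 libraries left and the 3 NL libraries right of each pair and bars for the mean. The points at 0.1 are libraries without reads, which include L2 replicate 1 for anthocyanidin synthase (ANS) and Unigene0014639, and 5 genes, among them Unigene0044220 and the myc regulator, have lower means in L2 than in NL.

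The L2 libraries varied more in the pigment genes than the NL libraries did. Among the 35 pigment genes with a mean of at least 1 RPKM in L2, the median ratio of the highest to the lowest L2 library was 2.33, against 1.67 over 9615 listed genes. In NL the same ratio was 1.49 for 24 pigment genes and 1.60 over 8328 listed genes. Of the 23 flavonoid genes, 14 were highest in L2 replicate 2, 7 in replicate 3 and 2 in replicate 1. The 14 include the 4 unigenes of the late enzymes described above. Of the 13 tyrosine and betalain genes, 7 were highest in L2 replicate 1 and 3 in each of the others. The highest library was not counted over all listed genes, so neither count can be called particular to pigment genes. The ratios are descriptions, since genes of a library are not independent replicates. KEGG labels in the table placed 9 of the pigment genes in flavonoid biosynthesis, 4 in tyrosine metabolism, 2 in betalain biosynthesis and 1 in anthocyanin biosynthesis. The annotation came from beet for 16 of the 36 genes and from other species for the rest.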

How the data were processed

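Clean reads were assembled de novo with Trinity and mapped with Bowtie2 by the authors. The tool for read counting was not given in the sources used here. The authors deposited RPKM per library, mean RPKM per stage, and mean read counts per stage. The mean counts, deposited by the authors as averages over 3 libraries, were handled as estimated counts because an average need not be whole, although 3 times each of them was. By the study's methods the table is limited to genes at an FDR threshold of 0.05 and a log2 ratio of 1 or more in either direction. The deposited log2 ratio, p-value and FDR columns are the authors' own comparison and were not used. Columns of other samples numbered 0.

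The mean counts and RPKM values were solved for whole reads, library totals and unigene lengths. All 59302 values above 0 came out whole within a tolerance of 0.05 reads (100% of values). A stage without reads was set to a floor of 3 reads for lower bounds. Floors and intervals cover counting error only.

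Stages were compared with limma 3.58.1 (trend, two-sided) in R 4.3.3 on log2(RPKM + 0.1), with Benjamini-Hochberg adjustment over 11051 genes. A fold on this scale understates changes of low genes. P-values set the stage difference against the spread between the 3 libraries of a stage, moderated toward a trend over all genes. Genes without reads in NL have no spread there, so only their L2 libraries add spread of their own. The table was already filtered on these libraries, so adjusted p-values are read as description. Alternatives were pseudocounts of 1 and 0.01, a filter on low values (3 or more libraries with 1 RPKM or more), a block for replicate numbers, each library left out, edgeR 4.0.16 on the recovered reads with library totals or with TMM, DESeq2 1.42.0, and annotations without words of doubt. Scripts were tested on simulated data. Tables were built in Python 3.11.15 (pandas 2.3.3, numpy 2.4.6, scipy 1.17.1), and plots with matplotlib 3.10.9.

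Named genes were every tyrosine and betalain gene, the flavonoid gene of highest mean RPKM in each class, and up to 5 flavonoid genes with the largest difference in each direction among those with a mean of at least 1 RPKM in both stages (4 qualified among the lower ones). The members, lists and tests were chosen with earlier results of these data known. Gene names are the authors' annotations by similarity to other species.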

Additional observations from a re-analysis of the deposited data

How the results depend on the processing

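No pigment gene and no gene of the neighbouring steps reversed under the 13 alternatives fitted per gene, of which the filter left out 6 pigment genes. The calls of 18 pigment genes were the same under every alternative that could be fitted, and 18 changed under at least 1. DESeq2 lowered the counts of higher calls most, to 7 of 23 flavonoid genes (17 with limma), 6 of 13 tyrosine and betalain genes (11) and 19 of 40 neighbouring genes (29). Over all listed genes the share called higher was 25.1% by DESeq2 and 63.0% by limma. The DESeq2 size factors lower L2 relative to NL by 1.08 on the log2 scale. They were computed on genes selected as changed, so the lower counts may come in part from that selection. Restricting to annotations without words of doubt left 3 lower flavonoid calls in place of 5, and left none of the 2 lower tyrosine calls, since both genes carry the word "like" (0 genes to test). Leaving out each library gave 13 to 15 higher flavonoid calls and 3 to 5 lower ones. The lower calls were 3 without L2 replicate 1 and 3 without NL replicate 3. Over all listed genes these fits called 57.3% to 60.9% higher and 33.9% to 34.8% lower. With the replicate number as a block, 18 flavonoid genes were called higher and 4 lower. The counts were 11 and 2 for tyrosine and betalain genes, and 29 and 11 for neighbouring genes. Over all listed genes the block gave 62.5% higher and 36.1% lower. Libraries of the same number correlated at 0.0353, 0.0225 and 0.0597 in their deviations, under 0.1, so the numbers were not taken as pairs. The depth limits genes with few reads, chalcone synthase above all, where 24 reads stand behind the L2 level of 2 genes.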
